A study of Mus musculus with 8 samples.

Results

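Expression of 9 genes of the red cell lineage was examined by RNA-seq of 7 populations sorted from mouse bone marrow and of their input cells. The 9 genes were taken from the 49315 genes counted and were matched from the Ensembl gene IDs by their symbols. Hba-a1 and Hba-a2 encode the alpha chain of adult haemoglobin. Gata1, Klf1 and Car1 were grouped as early erythroid genes, and Alas2, Slc4a1, Epb42 and Car2 as late non-globin erythroid genes. Values were compared by library and between these 3 groups.

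Red cells arise in the marrow from committed progenitors, which pass through several erythroblast stages, fill with haemoglobin and expel the nucleus. The transcription factors Gata1 and Klf1 act early in this course and drive the genes of haem synthesis, of the membrane skeleton and of the globin chains. The young red cell that leaves the marrow, the reticulocyte, no longer transcribes genes but still holds globin mRNA. Ter119, a surface antigen, is carried by late erythroblasts and red cells, and antibodies against it are used to remove them in a sort.

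Clusters 1 to 7 are populations of bone marrow stromal cells of wild type mice, labelled as C57BL/6J (C57BL/6JJcl in the study's methods) and as 6 weeks old, and the input cells are bone marrow cells of the same strain, genotype and age. According to the study's methods, bone fragments were digested with collagenase, red cells were burst by brief immersion in water, and cells negative for CD31, CD45 and Ter119 were sorted by further surface markers, whereas the sample labels describe RNA from crushed marrow. Each population had 1 library, so differences between libraries have no replicate check, no test was made between populations, and the intervals given below cover counting error only, with PCR copies not separated from independent molecules. The total count on genes was 24205863, 25349917, 27102715, 32549319, 12833648, 31669132 and 33238133 in clusters 1 to 7, and 20162876 in the input cells. RPKM, the count per kilobase of exon divided by the total count of the library and brought to the usual scale, was derived from the deposited counts, and its interval is the exact 95% Poisson interval of the count.

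The libraries of cluster 5 and of the input cells stood apart from the others before any erythroid gene was considered. In cluster 5, 34.8% of the counts lay on 3 loci, which were Rn18s-rs5, Lars2 and mmu-mir-689-2, while the same loci took 10.4% in cluster 2, 1.91% or less in the other sorted libraries and 0.188% in the input, and this lowers the RPKM of all other genes in cluster 5. In the input library, 65.8% of 991 olfactory receptor genes, which bone marrow is not known to use, reached 3 counts or more, while 26.3% did so in cluster 5 and 1.82% to 15.0% in the other sorted libraries. The median RPKM of these olfactory receptor genes was 0.165 in the input and 0 in each sorted library, which is of the order of the lowest erythroid values in the input. The part of these differences in the erythroid values was not tested. Scaling by the TMM factors of edgeR raised every log2 ratio to the input by 0.53, 0.68, 0.70, 0.71, 1.11, 1.04 and 0.63 in clusters 1 to 7, and values on that scale are named as TMM-scaled. In such bulk libraries, fewer cells of a type and less RNA per cell cannot be told apart.

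Regulatory sequence of the members is shown first, and its part in their levels was not tested. Promoter windows from RefSeq (GRCm38.p6) were matched to 6 of the 9 members, Hba-a1, Hba-a2, Gata1, Klf1, Alas2 and Epb42, and those of Slc4a1, Car1 and Car2 were not analysed here. The RefSeq start can differ from the gene start in the deposited counts. The 250 bases before the start are printed for a globin, an early and a late gene, at chr11:32283422-32283671 (plus strand) for Hba-a1, chr8:84901732-84901981 (plus strand) for Klf1 and chrX:150547167-150547416 (plus strand) for Alas2. Capitals mark every match on either strand to GATAA, the letters preferred by GATA factors, to CACCC, the letters bound by Klf1, and to CCAAT, a common promoter element, and no match overlaps another.
Hba-a1: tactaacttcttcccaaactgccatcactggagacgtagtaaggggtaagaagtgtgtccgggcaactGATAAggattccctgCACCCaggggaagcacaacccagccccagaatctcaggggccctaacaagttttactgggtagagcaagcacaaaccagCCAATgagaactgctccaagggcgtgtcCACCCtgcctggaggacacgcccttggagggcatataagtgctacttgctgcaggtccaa
Klf1: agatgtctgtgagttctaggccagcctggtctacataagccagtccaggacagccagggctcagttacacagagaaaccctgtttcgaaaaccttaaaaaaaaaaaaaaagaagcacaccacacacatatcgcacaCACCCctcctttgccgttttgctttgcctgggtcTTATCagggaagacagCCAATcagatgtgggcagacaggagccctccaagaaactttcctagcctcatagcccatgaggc
Alas2: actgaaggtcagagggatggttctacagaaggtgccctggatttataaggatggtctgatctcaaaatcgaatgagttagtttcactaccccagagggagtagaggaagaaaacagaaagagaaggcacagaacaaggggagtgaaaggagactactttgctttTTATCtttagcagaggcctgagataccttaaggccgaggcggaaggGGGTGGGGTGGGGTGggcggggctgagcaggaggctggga
GATAA was present in 5 of the 6 windows and absent from that of Gata1, whereas 22.6% of 32851 RefSeq promoter windows of the same length hold it. CACCC was present in 5 of the 6 windows and absent from that of Epb42, against 52.0% of all windows. CCAAT was found in 3 of the 6, those of Hba-a1, Hba-a2 and Klf1, against 33.8% of all windows. The windows of Hba-a1 and Hba-a2 are identical over all 247 bases that align, so the 6 windows are 5 distinct sequences and each globin match is counted for both genes. These matches are letters in a window and no binding was measured here.

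Both alpha-globin genes were far above all other members in every library, and both were highest in cluster 5. Hba-a1 (ENSMUSG00000069919, GRCm38 chromosome 11 from 32283511 to 32284465, plus strand) had an RPKM of 5607, 4956, 3054, 849, 30376, 593 and 2703 in clusters 1 to 7, and 267 in the input cells. The cluster 5 value, from 316543 reads, was 5.42-fold that of cluster 1, the next library (95% interval of the ratio 5.38 to 5.45), and 51.2-fold that of cluster 6, the lowest sorted library (50.4 to 52.1). All 7 sorted libraries lay above the input, and no neighbours in the order were within counting error of each other.

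Hba-a2 (ENSMUSG00000069917, chromosome 11 from 32296489 to 32297298, plus strand), the second alpha-globin gene, had an RPKM of 2554, 2047, 1350.0, 356, 12695, 234 and 959.6 in clusters 1 to 7, and 109.6 in the input cells. The order of the 8 libraries was that of Hba-a1. With TMM scaling the cluster 5 values were 41067 for Hba-a1 and 17163 for Hba-a2, and the input values were 167 and 68.6.

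The pair of genes is near-identical, which limits the reading of either alone. In GENCODE M1 the coding sequences, of 429 bases each, differ at 1 base, and 266 of the 405 possible stretches of 150 bases in the Hba-a2 transcript occur unchanged in that of Hba-a1. The counting of reads shared between genes is not stated, so the split between the 2 genes is uncertain. Counts on Hba-a1 were 2.67 times those on Hba-a2 in cluster 1 (2.64 to 2.70), 2.91 times in cluster 5 (2.89 to 2.93) and 3.43 times in cluster 7 (3.38 to 3.48), the lowest, a middle and the highest of the 8 ratios. Summed, the pair held 3.31% of the counts in cluster 5 (95% Wilson interval 3.30% to 3.32%). Its share was 0.626%, 0.539%, 0.338%, 0.0927%, 0.0638% and 0.284% in clusters 1, 2, 3, 4, 6 and 7, and 0.0290% in the input. The pair gave 98.0% of the reads on all 9 members in cluster 5 but 87.0% in cluster 6 and 86.8% in the input. The summed RPKM of the alpha chains over that of the adult beta chains Hbb-bs and Hbb-bt was 1.70 in cluster 5, 1.23 in the input and 0.993 in cluster 7, the lowest.

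The early genes were expressed at a small fraction of the globin level, and each of the 3 was likewise highest in cluster 5 and lowest of the sorted libraries in cluster 4. Gata1 (ENSMUSG00000031162, chromosome X from 7959260 to 7978071, minus strand), the zinc finger factor without which red cells do not form, had an RPKM of 0.847, 0.825, 0.832, 0.189, 2.65, 0.427 and 0.321 in clusters 1 to 7, and 1.22 in the input cells. The cluster 5 value rested on 83 reads and was 3.13-fold that of cluster 1 (2.18 to 4.54). Clusters 1, 2 and 3 could not be told apart within counting error, nor could clusters 6 and 7 or clusters 7 and 4. Unlike the other members, Gata1 was higher in the input than in 6 of the 7 sorted libraries, although with TMM scaling the input value was 0.764 and only 3 of the 7 lay below it.

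Klf1 (ENSMUSG00000054191, chromosome 8 from 84901928 to 84905291, plus strand), which activates the adult beta-globin gene and many other erythroid genes, had an RPKM of 1.76, 1.68, 2.19, 0.582, 11.2, 1.96 and 1.18 in clusters 1 to 7, and 0.292 in the input cells. Cluster 5 was 5.11-fold above cluster 3, the next library (3.98 to 6.59). The values of clusters 3, 6, 1, 2 and 7 differed from their neighbours in this order by less than counting error. The input value came from 9 reads (Poisson interval 0.133 to 0.554 RPKM), and the ratio of cluster 5 to the input was 38.4 with an interval from 19.9 to 85.1.

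Car1 (ENSMUSG00000027556, chromosome 3 from 14766216 to 14808368, minus strand), a carbonic anhydrase that appears early in erythroid cells, had an RPKM of 3.97, 8.72, 2.93, 0.0492, 31.9, 6.58 and 2.63 in clusters 1 to 7, and 1.31 in the input cells. Cluster 4 had 2 reads, and cluster 5 had 511. The ratio of these RPKM values was 648, with an interval from 178 to 5365. Car1 was the only early gene with cluster 2 as the next library after cluster 5, and cluster 6 followed.

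Among the late genes Alas2 (ENSMUSG00000025270, chromosome X from 150547375 to 150570638, plus strand), the erythroid enzyme of the rate-limiting step of haem synthesis, had the highest RPKM in clusters 1, 2, 4, 5 and 7, and Car2 in clusters 3 and 6 and the input. Its RPKM was 44.6, 32.7, 21.6, 8.62, 117, 11.0 and 51.2 in clusters 1 to 7, and 5.10 in the input cells. Cluster 7 came next after cluster 5, which was 2.28-fold higher (2.18 to 2.38). Exons of Alas2 are overlapped by those of 2 other genes, and since strandedness of the counting is not stated, reads of these could not be separated.

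Slc4a1 (ENSMUSG00000006574, chromosome 11 from 102348824 to 102366203, minus strand), the band 3 anion exchanger of the red cell membrane, had an RPKM of 4.59, 4.57, 4.79, 0.534, 15.2, 2.03 and 4.45 in clusters 1 to 7, and 0.649 in the input cells. Clusters 3, 1, 2 and 7 formed a plateau within counting error of each neighbour, and cluster 5 was 3.18-fold above it (2.87 to 3.52 against cluster 3). Cluster 4 and the input were also within counting error of each other.

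Epb42 (ENSMUSG00000023216, chromosome 2 from 121017891 to 121037072, minus strand), the membrane skeleton protein 4.2 that binds band 3, stayed below 2 RPKM in all 8 libraries. Its RPKM was 0.686, 0.306, 0.545, 0.0737, 1.60, 0.426 and 0.955 in clusters 1 to 7, and 0.174 in the input cells. Cluster 5 was 1.67-fold above cluster 7 (1.30 to 2.13), the smallest lead of cluster 5 over the next library among the 9 members.

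Car2 (ENSMUSG00000027562, chromosome 3 from 14886273 to 14900770, plus strand), a carbonic anhydrase of red cells that osteoclasts also use, had an RPKM of 22.0, 25.3, 22.2, 3.81, 102, 18.4 and 19.7 in clusters 1 to 7, and 9.42 in the input cells. Clusters 1, 2, 3, 6 and 7 thus lay within a narrow band, and cluster 5 was 4.02-fold above cluster 2 (3.78 to 4.27). Cluster 4 was below the input, by 2.48-fold (2.14 to 2.87). The summed RPKM of 8 osteoclast markers, with Ctsk the most abundant, was 374, 175, 349, 551, 224, 173 and 645 in clusters 1 to 7, and 289.9 in the input cells, with Calcr at 0 in clusters 1 to 4. Their part in the level of Car2 was not tested.

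**Figure D1:**
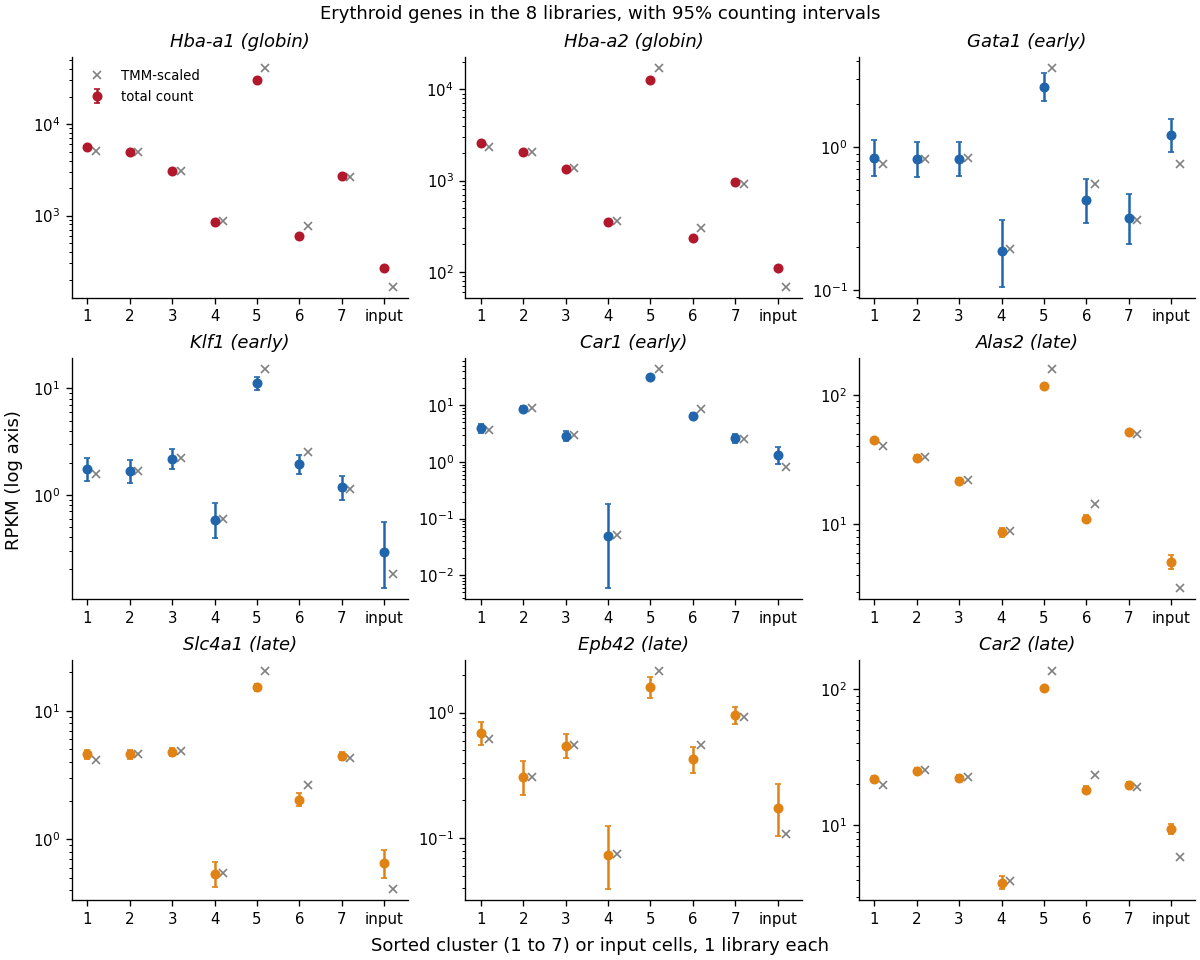
RPKM (log axis, own scale in each panel) of the 9 genes in clusters 1 to 7 and the input cells, with 1 library each. Circles are scaled by the total count, with 95% Poisson counting intervals, and grey crosses are TMM-scaled. Every panel has its highest point in cluster 5, at 30376 for Hba-a1 and 1.60 for Epb42, and 7 of the 9 have their lowest sorted point in cluster 4.

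All 9 members had their highest sorted value in cluster 5, where 4.73% of 12360 genes above 2 RPKM in at least 1 sorted library had theirs. Epb42 is not among these genes, and Gata1 is among them only through cluster 5, so the share can be set beside the other 7 members alone. Cluster 4 was the lowest sorted library for 7 members, against 4.4% of the same genes, and cluster 6 for the other 2, which were the alpha-globins. Those lowest in cluster 4 include Epb42 and Gata1, which leaves Klf1, Car1, Alas2, Slc4a1 and Car2 to set beside that share. The counts of 9 and 7 members were the same with TMM factors, DESeq2's size factors, a total without the 3 loci named above or without haemoglobin genes, and at equal depth. Each sorted library was also set against the median of the other 6, which leaves the input out. A gene was counted as higher or lower where RPKM + 1 differed more than 2-fold and RPKM was above 2 in at least 1 of the pair. In cluster 5, 8 of the 9 members were then higher, all but Epb42, against 4.41% of 10404 genes, and the median log2 ratio was 2.17 over all 9 members and -0.53 over all genes tested. Gata1 and Klf1 passed the limit of 2 RPKM only through cluster 5 and could not have been counted as lower, which leaves 6 members to set beside that share. In cluster 4, 6 members were lower (Hba-a1, Hba-a2, Car1, Alas2, Slc4a1 and Car2), against 1.4% of 10355 genes. Of these, Car1 and Slc4a1 passed the limit only through the other libraries and could not have been counted as higher. In cluster 6, 3 were lower, namely both globins and Alas2, against 11.2% of 10347 genes. Clusters 1, 2, 3 and 7 stood near the middle, with 2 members past the threshold in all, Hba-a2 higher in cluster 1 and Car1 higher in cluster 2. Of all genes tested in clusters 1, 2, 3 and 7, 5.81%, 9.48%, 4.22% and 7.48% were higher, and 1.75%, 5.04%, 3.49% and 2.71% were lower.

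Against the input, the alpha-globins were higher in all 7 sorted libraries, while the number of other members past the same threshold depended on the cluster. Gata1, Klf1, Car1, Slc4a1 and Epb42 were below 2 RPKM in the input, so they could enter this comparison only through a sorted library above 2 RPKM and could not be counted as lower, and nothing is read from their calls. The globins, Alas2 and Car2 could go either way, and all 4 were higher in clusters 1, 2, 3 and 5. Of the 9 members, 6 were higher in each of clusters 1, 2 and 3, where 5.53%, 7.06% and 4.33% of all genes tested were. In cluster 4 only the 2 globins were higher (4.68% of all genes) and Car2 was lower (45.5% of all genes). In cluster 5, 7 members were higher (3.21% of all genes), in cluster 6 the globins and Car1 (3.82%) and in cluster 7 the globins, Alas2 and Slc4a1 (3.43%). None of the 4 was lower outside cluster 4, beside a share of lower genes among all tested of 41.6% in cluster 1, and 47.9%, 46.5%, 61%, 53.6% and 39.4% in clusters 2, 3, 5, 6 and 7. Gata1 was tested in cluster 5 alone, where its log2 ratio was 0.72, and Epb42 in no library, because of their low levels. With TMM factors the number of members higher was 6, 6, 7, 3, 9, 7 and 5 in clusters 1 to 7, where 13.4%, 16.7%, 13.8%, 14.3%, 12.5%, 14.4% and 10.1% of all genes were higher, and Car2 in cluster 4 was no longer lower. With the total count, the median log2 ratio over all 9 members was 3.30 in cluster 5, beside -1.24 over all genes tested, and -0.10 in cluster 4, beside -0.85.

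Globin and non-globin genes were next compared within each library, where the ratio does not depend on scaling. The summed RPKM of the globin pair over that of the 4 late genes was 114, 111, 89.5, 92.5, 183, 26.0 and 48.0 in clusters 1 to 7, and 24.5 in the input cells. Clusters 6 and 7 thus held less globin mRNA for their late genes than the other sorted libraries, and cluster 6 was close to the input. Globin over the 3 early genes was 1241, 624, 739.6, 1469, 941, 92.3 and 887 in clusters 1 to 7, and 133 in the input cells. Here cluster 6 stood apart from the other 6 sorted libraries, which lay between 624 and 1469, and cluster 4, with 46 reads on its early genes, had the highest ratio. Without Car1 cluster 6 was still the lowest sorted library, at 346, but cluster 4 was no longer the highest. Late over early was 10.9, 5.60, 8.26, 15.9, 5.13, 3.55 and 18.5 in clusters 1 to 7, and 5.43 in the input cells. The level of cluster 5 was not one of globin alone, since early and late genes were 16.2-fold and 15.3-fold above the input. Its late over early ratio was close to that of the input, where the early genes had 102 reads. Car1 gave 31.9 of the summed early RPKM of 45.8 in cluster 5, and late over early was not recomputed without it. Globin was 21.7-fold, 18.6-fold, 11.7-fold, 3.20-fold, 114-fold, 2.198-fold and 9.73-fold above the input in clusters 1 to 7. Cluster 6 was the only sorted library in which the early genes exceeded the input by more (3.18-fold) than globin did. This order turned without Car1, where globin over early was 346 in cluster 6 and 249 in the input. In cluster 4, globin was above the input whereas the early genes were at 0.291 of it and the late genes at 0.849. With TMM scaling the late genes of cluster 4 were 1.39-fold above the input and the early genes were at 0.476 of it.

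**Figure D2:**
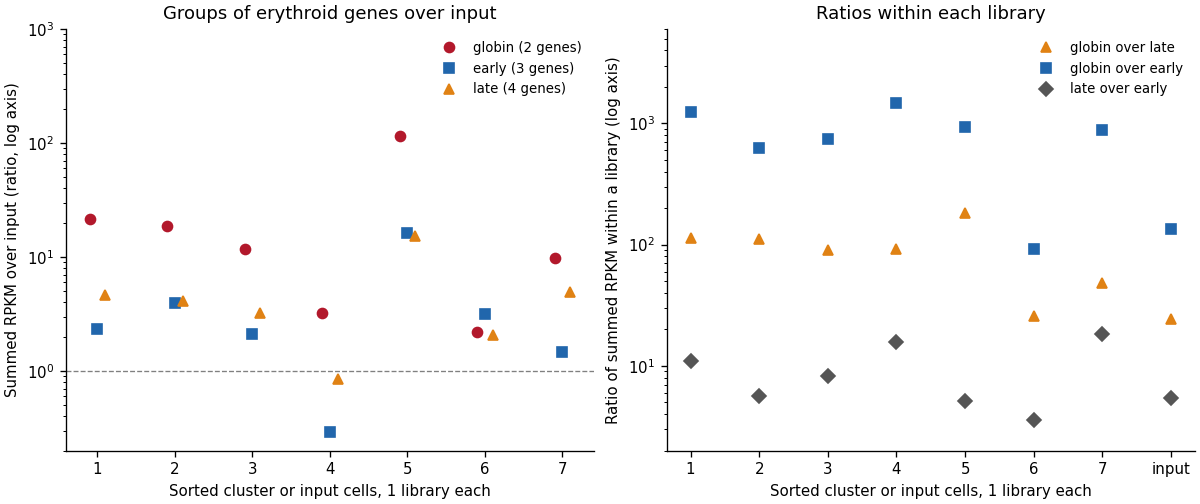
Left, the summed RPKM of globin, early and late genes in each sorted library as a ratio to the input cells (log axis, dashed line at 1). Right, ratios of the summed RPKM between these groups within each library (log axis). Globin reaches 114-fold in cluster 5 and 2.198-fold in cluster 6, and globin over late genes ranges from 26.0 in cluster 6 to 183 in cluster 5.

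The members varied together over the 7 sorted libraries, as a description over 7 points that share the scaling of each library and include the outlying cluster 5. Pearson's r of log2(RPKM + 1) between pairs of members ranged from 0.71 (Car1 and Alas2) to 1.00 (Hba-a1 and Hba-a2), with a median of 0.86 over 36 pairs. Summed globin had an r of 0.91 and a Spearman's rho of 0.75 with the late genes, and an r of 0.80 and a rho of 0.57 with the early genes. Without clusters 5 and 6, the libraries farthest in globin, these r values over 5 libraries were 0.89 and 0.95. Cluster 4, the lowest sorted library in early and late genes (summed RPKM 0.821 and 13.0), was still among these 5. The values thus do not show a relation that holds without cluster 4. Early and late genes had an r of 0.89 and a rho of 0.46, but without clusters 4 and 5 the r was -0.44, so that relation rested on those libraries.

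A wider set of 77 genes in 5 lists, which include the 9 members, was described in the same way: globin chains, erythroid regulators, haem synthesis and iron, the red cell membrane, and a list of terminal erythroid genes that also holds Car1 and Car2. A gene below 2 RPKM in the input could be counted only as higher, and one below it in the sorted library only as lower. Of the 68 genes that are not among the 9 members, 57 could be tested in cluster 5 and 21 of these were higher than in the input, against 3.21% of all genes, while 6 were lower, against 61%. In clusters 1, 2, 3, 4, 6 and 7, in this order, 10 of 53, 7 of 52, 6 of 53, 3 of 47, 3 of 48 and 8 of 50 tested genes were higher, where 5.53%, 7.06%, 4.33%, 4.68%, 3.82% and 3.43% of all genes were. The shares in clusters 4 and 6, 6.38% and 6.25%, were thus near those of all genes. In the same clusters 7, 12, 10, 13, 17 and 4 genes of the lists were lower, where 41.6%, 47.9%, 46.5%, 45.5%, 53.6% and 39.4% of all genes were. TMM scaling turned this split toward higher values. On that scale, 31 of 54 genes were higher and 0 were lower in cluster 5. The genes higher numbered 17 of 46, 14 of 47, 10 of 47, 8 of 40, 11 of 45 and 10 of 44 in clusters 1, 2, 3, 4, 6 and 7, and the genes lower 3, 3, 2, 4, 3 and 2. Of all genes, 13.4%, 16.7%, 13.8%, 14.3%, 12.5%, 14.4% and 10.1% were higher on that scale in clusters 1 to 7. The share of all genes lower on that scale was 27.3%, 28.8%, 29.5%, 27.3%, 26.6%, 28.3% and 25.9% in clusters 1 to 7.

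By list, the adult globin chains were the most uniform. Hba-a1, Hba-a2, Hbb-bs and Hbb-bt were higher than the input in all 7 sorted libraries. The theta-like chain Hbq1b, with the smallest log2 ratio of cluster 5 to the input (1.96) among the genes of this list with 50 counts or more in either library, had an RPKM of 10.3 in cluster 5 and 1.92 in the input and was higher in cluster 5 only. The other theta-like chain, Hbq1a, was lower than the input in clusters 1, 3, 4, 6 and 7, but with TMM scaling in clusters 4 and 6 only, and on that scale it was higher in cluster 5. It had an RPKM of 4.13 in cluster 5 and 3.28 in the input, from 32 and 40 reads. The embryonic chains Hba-x, Hbb-y and Hbb-bh1 did not reach 2 RPKM in any library.

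Erythroid regulators were split between higher and lower calls in cluster 5 by the total count, where 3.21% of all genes were higher and 61% lower. With TMM scaling 5 of 10 tested were higher and 0 lower, where 12.5% and 26.6% of all genes were. By the total count, 3 of 12 tested were higher, Klf1, the Gata1 partner Zfpm1 and the erythropoietin receptor Epor, and 3 were lower, Nfe2, Myb and Kit. Klf1, Zfpm1 and Epor were below 2 RPKM in the input (0.292, 0.198 and 0.0748), so they could not have been counted as lower. Myb and Kit were below 2 RPKM in cluster 5 and could not have been counted as higher. Nothing is read from this split. Klf1 had the largest log2 ratio of the list (3.24). Myb, a factor of immature progenitors, had the smallest (-1.41), with an RPKM of 1.47 in cluster 5 and 5.53 in the input. Nfe2, which neutrophils and platelets' precursors also express, had the highest RPKM of the list in any library, 41.9 in the input, and was at 16.5 in cluster 5. The median log2 ratio of the tested regulators was -0.25 in cluster 5, beside -1.24 over all genes tested. By the total count, 1 of 9, 0 of 8, 2 of 10, 0 of 8, 0 of 8 and 0 of 8 were higher in clusters 1, 2, 3, 4, 6 and 7. In the same clusters 4, 4, 5, 5, 3 and 1 were lower. Of all genes there, 3.43% to 7.06% were higher and 39.4% to 53.6% lower.

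All 16 genes of haem synthesis and iron handling were tested in each library. In cluster 5, 4 were higher and 0 were lower, where 3.21% and 61% of all genes were. Those higher included Alas2 and Alad, which act in the first steps of haem synthesis, and the mitochondrial iron carrier Slc25a37. Elsewhere Alas2 was the only one higher, in clusters 1, 2, 3 and 7, while 3 genes were lower in cluster 2 (Slc25a38 and Fth1 among them), 2 in cluster 3, 2 in cluster 4 and 4 in cluster 6 (Fth1 among them). In clusters 1, 2, 3, 4, 6 and 7, higher genes were 3.43% to 7.06% and lower genes 39.4% to 53.6% of all genes. With TMM scaling none of the list was lower in any sorted library, and 8 of 16 were higher in cluster 5, where 12.5% of all genes were. Slc25a38, the mitochondrial glycine carrier, had the smallest ratio in cluster 5, at -0.99 on the log2 scale and thus inside the threshold. The ferritin heavy chain Fth1, which is not particular to red cells, had the highest RPKM of the list in any library, 4489.7 in the input, and was at 2585 in cluster 5.

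Of 20 membrane genes, 15 were tested in cluster 5, where 6 were higher, Slc4a1, Rhd, Kel, Ermap and Slc14a1 among them, and 2 were lower, including Tmod1, beside 3.21% and 61% of all genes. With TMM scaling 10 of 15 were higher and 0 lower in cluster 5, beside 12.5% and 26.6%. By the total count, 3 of 12, 2 of 13, 3 of 12, 0 of 10, 0 of 12 and 3 of 12 were higher in clusters 1, 2, 3, 4, 6 and 7. In the same clusters 2, 3, 2, 5, 5 and 2 were lower. Of all genes there, 3.43% to 7.06% were higher and 39.4% to 53.6% lower. The water channel Aqp1, which endothelial cells also carry, had the highest RPKM of the list in any library, at 192 in cluster 3. Cd24a on this list encodes a surface marker that was used in the sort. It was above Aqp1 in clusters 2, 4, 5 and 6 and in the input, with an RPKM of 78.5 in cluster 5 and 88.2 in the input.

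The list of terminal erythroid genes held 18 matched genes with Car1, grouped above as early, and Car2, and 16 were tested in cluster 5. There 10 were higher (Car1, Car2, Hemgn, Trim10, Bpgm, Ube2l6, Ube2o, Blvrb and Prdx2 among them) and 1 was lower (Cat), again beside 3.21% and 61% of all genes. Without Car1 and Car2, 8 of 14 were higher. Car1 had the largest log2 ratio, 3.83. Trim10 had an RPKM of 15.5 in cluster 5 and 1.06 in the input, and Bpgm, the enzyme that makes the oxygen-affinity regulator of red cells, 28.8 and 6.16. Prdx2, an abundant peroxidase of red cells, had the highest RPKM of the list in any library, 105 in cluster 5, and was at 48.5 in the input. Catalase (Cat) had the smallest ratio, -1.43, with 14.3 RPKM in cluster 5 and 40.3 in the input. Leaving out both members, the number of genes higher than the input was 5 of 14, 4 of 13, 1 of 14, 1 of 11, 1 of 11 and 4 of 13 tested in clusters 1, 2, 3, 4, 6 and 7, where 3.43% to 7.06% of all genes were higher. Lower were 2 genes in cluster 2 and 4 in cluster 6 (Cat among them in both), where 47.9% and 53.6% of all genes were lower. With TMM scaling none of the list was lower in any sorted library.

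**Figure D3:**
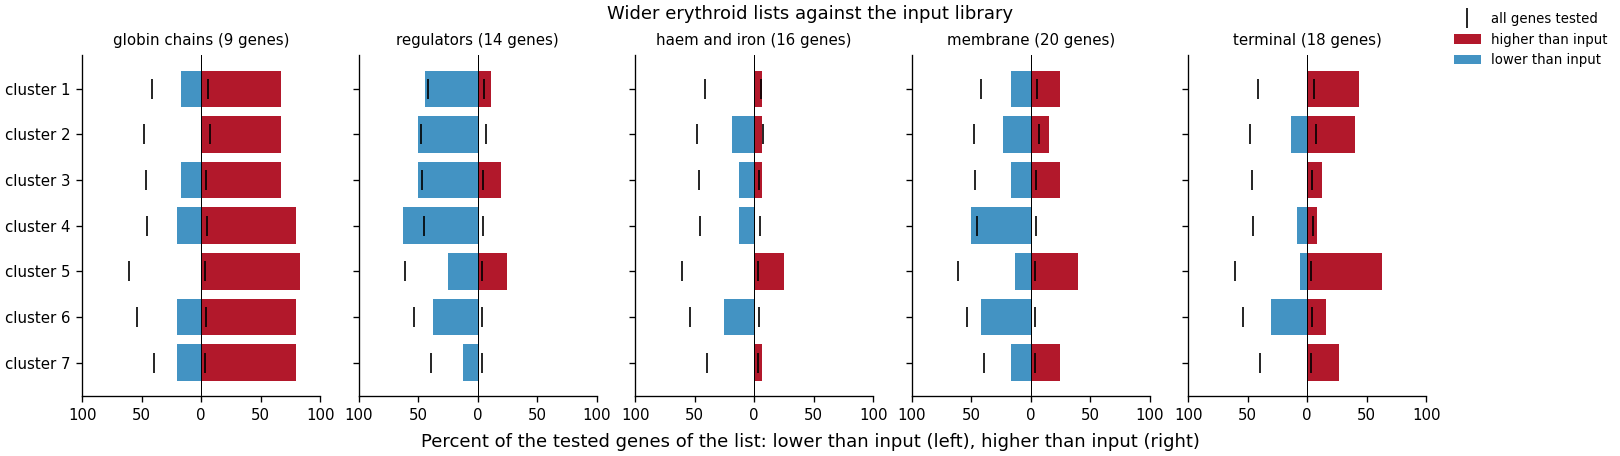
For each of 5 erythroid lists and each sorted library, the bars give the percent of the tested genes of the list that were higher (right) or lower (left) than in the input library, and black marks give the same for all genes tested. The bar of the terminal list in cluster 5 stands for 10 of 16 genes, where 3.21% of all genes were higher.

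Markers of the cell types that these libraries could hold were read beside the erythroid values. All 10 stromal markers had counts in every library, with Col1a1 or Dcn the most abundant. The neutrophil, macrophage and B cell markers also had counts in every library, so this does not show which cells were present. The summed RPKM of the stromal markers was 9603 in cluster 5, 7272 to 24703 in the sorted libraries and 10408 in the input. By the total count, 4, 2, 2, 6, 2, 2 and 5 were higher than the input in clusters 1 to 7, where 3.21% to 7.06% of all genes were. Lower were 1, 5, 1, 0, 1, 5 and 0, where 39.4% to 61% of all genes were. Pdgfra, which encodes a surface marker of the sort, was at 14.1 RPKM in the input. It was at 4.37, 7.51 and 7.44 in clusters 2, 5 and 6, and at 18.0 to 28.1 in the others. Ptprc, which encodes CD45, an antigen gated against, was lower than the input in clusters 1 to 6 (with TMM scaling in clusters 1 to 5), with a log2 ratio of -2.37 in cluster 5.

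The summed RPKM of 12 neutrophil markers was 15306, 17189, 11429, 18494, 27577, 16049 and 31193 in clusters 1 to 7, and 45351 in the input cells. S100a9 was the most abundant in each, and none of the 12 was at 0. This sum was at 0.252 to 0.688 of the input in the sorted libraries. With TMM scaling it was 1.31-fold and 1.06-fold the input in clusters 5 and 7, and 0.409 to 0.728 of it in the others. The 12 macrophage markers, led by Lyz2, summed to 1256 in cluster 5, 551 to 3828 in all sorted libraries and 5862 in the input, and none was at 0. Lyz2, which neutrophils also express, made up 1216 of the sum in cluster 5 and 5756 in the input. C1qb, a complement gene of macrophages, was higher than the input in clusters 5 and 7, at 9.74 and 16.0 RPKM beside 3.87. It was the only 1 of 9 tested markers that was higher there by the total count. In cluster 5, 5 were lower (Adgre1, Csf1r, Cd68, Siglec1 and Lyz2), and in cluster 7 Siglec1 was, where 61% and 39.4% of all genes were lower. The 10 B cell markers, led by Cd79b in cluster 5, summed to 58.6 in cluster 5, 48.5 to 125 in the sorted libraries and 292 in the input, with none at 0.

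Megakaryocytes share Gata1 with the erythroid lineage. The summed RPKM of 10 of their markers, led by Pf4, was 64.5, 39.1, 89.8, 19.8, 62.3, 7.09 and 26.5 in clusters 1 to 7, and 22.8 in the input cells. It was highest in cluster 3 and lowest in cluster 6, with Gp9 at 0 in cluster 2 and Gp6 at 0 in cluster 6, and its part in the Gata1 values was not tested. Mast cells, basophils and eosinophils also use Gata1, and their 8 markers, led by Prg2 in cluster 5, summed to 101 in cluster 5 and 422 in the input. Prg2, an eosinophil granule gene, was higher than the input in all 7 sorted libraries, at 63.8 RPKM in cluster 5 and 3.79 in the input, whereas 4 or 5 other genes of the list were lower in each, with the mast cell gene Cma1 at 0 in clusters 1 to 6. The 10 endothelial markers, led by Plvap, were highest in cluster 5, at 36.1, against 6.91 to 32.1 in the other sorted libraries and 23.8 in the input. Their part in the level of Aqp1 was not tested.

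**Figure D4:**
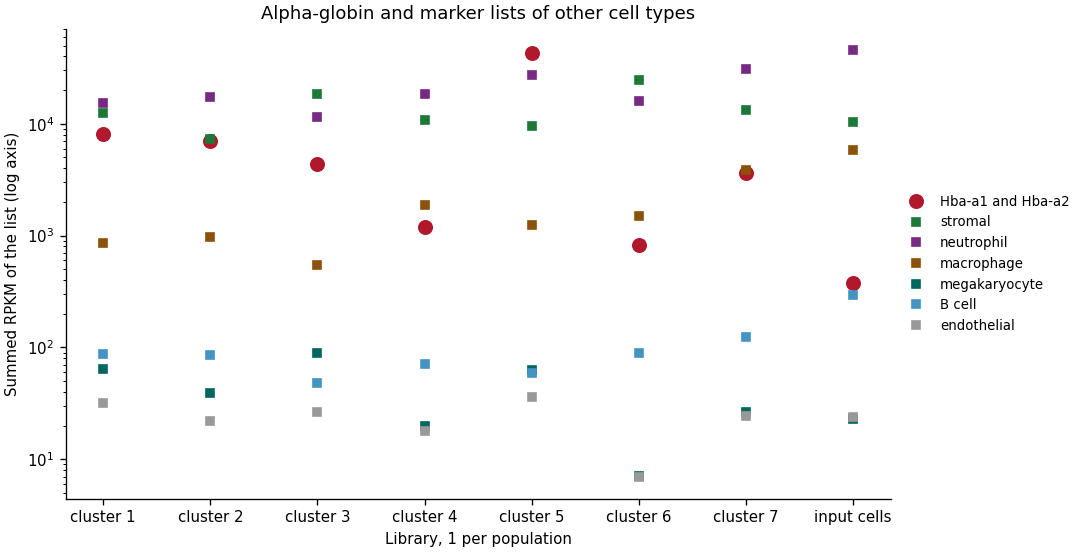
Summed RPKM (log axis) of Hba-a1 and Hba-a2 and of marker lists of 6 other cell types in each library. The alpha-globin pair ranges from 376 in the input to 43071 in cluster 5, while the neutrophil list is highest in the input, at 45351.

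Genes outside all lists whose pattern over the 8 libraries was most like that of the members were ranked by Pearson's r of log2(RPKM + 1) among 15710 genes with RPKM above 2 and at least 50 counts in at least 1 library. The 5 nearest to summed globin were Gm10222 (r = 0.95), mt-Nd6 (0.91), Rsad2 (0.90), mt-Nd1 (0.90) and mt-Nd3 (0.90), of which the mt genes are mitochondrial. The RPKM of mt-Nd1 was 5354 in cluster 5 and 629 in cluster 6, and 1024 in the input. The 5 nearest to the early genes were Pdzk1ip1 (0.93), Cldn13 (0.93), Tspan33 (0.93), Fam55b (0.93) and Slc38a5 (0.92). The late genes had Cldn13 (0.91), Tspan33 (0.91), Rsad2 (0.90), Hist1h2bj (0.89) and Apol11b (0.88), so Cldn13 and Tspan33 stood near both the early and the late genes. The RPKM of Cldn13 was 3.06, 1.74, 4.08, 0.317, 24.4, 2.19 and 1.61 in clusters 1 to 7, and 0.0930 in the input cells, where it had 2 reads. As with the members, these rankings lean on cluster 5, which was the highest library of each gene given with its values here.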

How the data were processed

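The 8 RNA-seq libraries comprised 1 of each sorted cluster and 1 of the input cells. The authors deposited raw counts of reads per Ensembl gene, without normalization, with GRCm38 exon positions and exon lengths. By the Methods, reads were trimmed in Partek Flow 2.2, aligned by TopHat2 to mm9 and expressed as RPKM. The counting tool, strandedness and the treatment of shared reads are not given in the sources used here. RPKM used the deposited counts, their sum over genes and the exon length, per kilobase and per library total. Symbols were matched to 32464 of 49315 genes, Epb42 by a RefSeq synonym and Hbb-bs and Hbb-bt by position, and 2 genes of the terminal list (Ahsp and Tent5c) were not matched.

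A gene was counted as higher or lower where RPKM + 1 (pseudocount 1) differed more than 2-fold with RPKM above 2 in at least 1 of the pair, after the Methods. Ratios have exact binomial, counts exact Poisson and shares Wilson 95% intervals. No test was made, because each population had 1 library. edgeR and DESeq2 gave scaling factors only. Genes named are the 9 members, the genes of each list with the highest RPKM or with the largest and smallest log2 ratio of cluster 5 to the input among those with 50 counts or more, and the 5 nearest genes in pattern. Other genes, given where a list had few calls or where the gene also marks a sort or another cell type, were chosen after their values were seen. Some genes of the lists, although counted, are not reported here by name. The members and lists were chosen with earlier results of these data known. The calculations were tested on simulated counts. Alternatives comprised TMM factors, DESeq2 size factors, a pseudocount of 0.1, no RPKM filter, totals without 3 loci or without haemoglobin genes, equal depth, and other groupings of the members. Promoter windows and start sites came from RefSeq GRCm38.p6, transcripts from GENCODE M1. Scaling used R 4.3.3, edgeR 4.0.16 and DESeq2 1.42.0, and other steps used Python 3.11.15 with biopython 1.88, scipy 1.17.1, pandas 2.3.3, numpy 2.4.6 and matplotlib 3.10.9.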

Additional observations from a re-analysis of the deposited data

How the results depend on the processing

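No paired analysis was possible because no population had a replicate. Of 218 values recomputed under the alternatives, 150 stayed the same or within the tolerance of the comparison (1.5 times for a count, the counting interval for a summed ratio), and 67 moved. The summed late genes of cluster 4 turned from 0.849 to 1.39 of the input with TMM factors, a scaling of these sums chosen after seeing the data, which raised each of the other summed ratios to the input as well. The cause of the moves was not tested beyond the scaling itself. All 9 members stayed highest in cluster 5 and 7 stayed lowest in cluster 4 under each of the 5 alternatives of scaling or depth.

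The number of members higher than the input in cluster 6 was 3 by the total count, 7 with TMM factors, 7 with DESeq2 size factors and 5 with a pseudocount of 0.1. Of all genes, 3.82% were higher there by the total count and 14.4% with TMM factors. No such share is given here for DESeq2 size factors, the pseudocount of 0.1 or no RPKM filter. The 1 member lower in cluster 4 became 0 by either TMM factors or DESeq2 size factors, and 2 with no RPKM filter. In cluster 4, 45.5% of all genes were lower by the total count and 27.3% with TMM factors. With the median of the other 6 sorted libraries in place of the input, an alternative chosen after seeing the data, members higher numbered 1, 1, 0, 0, 0 and 0 in clusters 1, 2, 3, 4, 6 and 7, and members lower 6 in cluster 4 and 3 in cluster 6. In the same order of clusters, 5.81%, 9.48%, 4.22%, 5.21%, 5.16% and 7.48% of all genes were higher. Lower were 1.4% in cluster 4 and 11.2% in cluster 6.

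Of the 77 genes of the wider lists, the total count gave 13, 5 and 6 genes higher than the input in clusters 2, 4 and 6, and both TMM factors and DESeq2 size factors gave 20, 11 and 18. Among all genes, 7.06%, 4.68% and 3.82% were higher in these clusters by the total count, and 16.7%, 14.3% and 14.4% with TMM factors. Genes lower in clusters 1 to 7 numbered 7, 12, 10, 14, 6, 17 and 4 by the total count, 3, 3, 2, 4, 0, 3 and 2 with TMM factors, and 3, 4, 2, 5, 0, 4 and 2 with DESeq2 size factors. The shares of all genes lower are given above for the total count and TMM factors. In cluster 5, 1 gene was lower with a total that leaves out Rn18s-rs5, Lars2 and mmu-mir-689-2.

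Globin over late genes without Car2 was 61.4 (cluster 6), 323 (cluster 5) and 63.6 (input), and with geometric means of RPKM + 0.1 it was 95.8, 834 and 95.9, so the lowest and highest sorted library were kept. Globin over early genes was 346 in cluster 6 and 249 in the input without Car1, and 193 and 190.0 with geometric means. Cluster 6 stayed the lowest sorted library in both, and cluster 4 was no longer the highest in either. In both, the early genes of cluster 6 no longer exceeded the input by more than globin did. Depth limits mostly Gata1, Klf1, Epb42 and the early genes of cluster 4, which rest on fewer than 100 reads in most libraries.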
